A study of Mus musculus with 12 samples.

Results

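The nuclear genes of the mitochondrial respiratory chain and ATP synthase were examined for TET2 sites in 2 cultures of mouse blood-forming cells. The set held 96 protein-coding genes of 21887, picked by symbol: those starting with Nduf, Uqcr, Cox4 to Cox8 or Atp5, and Sdha, Sdhb, Sdhc and Sdhd. The choice was made with earlier results of these data known. Grouped by symbol, it comprised 49 complex I genes (7 core subunits, 34 other subunits and 8 assembly factors), 4 of complex II, 8 of complex III, 18 of complex IV and 17 of ATP synthase. Genes such as Ndufa4, Ndufa4l2, Ndufb4b and Ndufb4c thus count under complex I by symbol alone, which does not show that they encode its subunits. A few members, such as the assembly factors and the supercomplex factor gene Cox7a2l, are no subunits of a mature complex.

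The respiratory chain passes electrons from NADH and succinate to oxygen and pumps protons across the inner mitochondrial membrane. ATP synthase uses the returning protons to make ATP. Complex II, succinate dehydrogenase, also consumes succinate, a competitive inhibitor of the dioxygenases that depend on alpha-ketoglutarate. TET2, which oxidizes methylated cytosine in DNA, is one of these dioxygenases. Most genes of the set are expressed in nearly all cells from CpG-rich promoters, and NRF1 and the ETS factor GABP are known regulators of many of them.

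TET2 was located by chromatin immunoprecipitation and sequencing (ChIP-seq) with an antibody against its N-terminal part. The first culture consisted of acute myeloid leukemia cells (AML cells), with 2 Tet2KO libraries (genotype Npm1+/cA; Fl3+/ITD; Tet2-/-), 2 WT libraries (Npm1+/cA; Fl3+/ITD), 1 IgG and 1 input library. The second consisted of immortalized hematopoietic cells (myeloid cells) that carried the retroviral AML1-ETO transgene MigR1-AML1-ETO, with 2 Tet2KO libraries (Tet2-/-; AML1-ETO), 2 WT libraries (Tet2fl/fl; AML1-ETO), 1 IgG and 1 input library. IgG and input carried the WT genotype of their culture, all cells grew in vitro with 50 ng/ml SCF, 10 ng/ml IL-3 and 10 ng/ml IL-6, and the Npm1 and Fl3 alleles or the transgene were shared by all libraries of a culture. Tet2KO cells lacked full-length TET2, per the study's design text. The labels do not say whether replicates came from separate cultures. The data are 1 list of sites per culture, with 7002 sites in the AML list and 19706 in the myeloid list, and no score or value per library. No wild-type and knockout signal could therefore be compared, the loss of TET2 in the knockouts could not be checked, and the depth behind a site is unknown. The site lists give no expression either, so the cell type labels could not be checked against markers. After merging of overlaps 6895 AML and 18822 myeloid sites were left, so the myeloid list held 2.73 times the number of sites, which bears on every comparison of counts between the lists.

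The sequences upstream of 7 transcription starts show what lay under the myeloid sites and what did not. The first 5 starts lay inside a myeloid site and the last 2, those of Sdhd and Cox6a1, in no site of either list. Sdhb had the most sites in complex II, Ndufs7 has 3 matches of the RUNX letters, Ndufs5 has the NRF1 letters, Uqcrfs1 encodes the Rieske protein of complex III, and Cox7a1 is a muscle-type paralog with few CpG. Each line gives the 250 bases before the start, 5′ to 3′ on the gene's strand, from RefSeq on GRCm38.p6, with capitals on matches in either strand of TGTGGT (RUNX), the NRF1 motif (GCGCA, any 1 base, then GCGC) or CCGGAAG (ETS, the GABP letters).
Sdhb (chr4:140961021-140961270, plus strand): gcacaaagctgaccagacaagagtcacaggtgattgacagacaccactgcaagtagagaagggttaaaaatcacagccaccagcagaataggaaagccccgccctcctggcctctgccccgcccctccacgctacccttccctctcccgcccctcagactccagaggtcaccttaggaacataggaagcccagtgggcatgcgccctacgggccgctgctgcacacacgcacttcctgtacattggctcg
Ndufs7 (chr10:80249199-80249448, plus strand): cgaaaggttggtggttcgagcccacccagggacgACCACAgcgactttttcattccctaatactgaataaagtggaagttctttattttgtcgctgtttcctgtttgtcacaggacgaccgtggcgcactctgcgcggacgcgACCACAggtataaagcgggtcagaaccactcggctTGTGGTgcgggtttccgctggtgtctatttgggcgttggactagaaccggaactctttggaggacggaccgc
Ndufs5 (chr4:123718187-123718436, minus strand): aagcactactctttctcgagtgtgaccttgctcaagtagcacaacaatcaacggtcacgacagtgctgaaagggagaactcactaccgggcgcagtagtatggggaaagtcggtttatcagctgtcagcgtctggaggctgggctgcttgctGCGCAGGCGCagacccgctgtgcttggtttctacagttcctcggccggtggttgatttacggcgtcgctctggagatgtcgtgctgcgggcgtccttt
Uqcrfs1 (chr13:30545317-30545566, minus strand): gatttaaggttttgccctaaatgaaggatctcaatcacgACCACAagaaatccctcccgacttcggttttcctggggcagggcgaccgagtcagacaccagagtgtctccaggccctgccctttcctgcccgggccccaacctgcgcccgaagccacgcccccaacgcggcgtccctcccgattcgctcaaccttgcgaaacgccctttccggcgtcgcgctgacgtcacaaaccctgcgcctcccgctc
Cox7a1 (chr7:30183921-30184170, plus strand): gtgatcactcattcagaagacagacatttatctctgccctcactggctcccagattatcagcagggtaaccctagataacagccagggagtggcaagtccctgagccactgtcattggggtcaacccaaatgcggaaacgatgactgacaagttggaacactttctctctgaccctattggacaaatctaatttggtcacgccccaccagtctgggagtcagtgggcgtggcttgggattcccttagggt
Sdhd (chr9:50603850-50604099, minus strand): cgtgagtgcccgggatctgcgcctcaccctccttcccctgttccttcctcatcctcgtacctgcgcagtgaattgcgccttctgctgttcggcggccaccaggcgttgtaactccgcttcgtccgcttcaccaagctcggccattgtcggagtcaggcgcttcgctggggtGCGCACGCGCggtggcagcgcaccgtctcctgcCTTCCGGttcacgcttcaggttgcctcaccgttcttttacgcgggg
Cox6a1 (chr5:115348959-115349208, minus strand): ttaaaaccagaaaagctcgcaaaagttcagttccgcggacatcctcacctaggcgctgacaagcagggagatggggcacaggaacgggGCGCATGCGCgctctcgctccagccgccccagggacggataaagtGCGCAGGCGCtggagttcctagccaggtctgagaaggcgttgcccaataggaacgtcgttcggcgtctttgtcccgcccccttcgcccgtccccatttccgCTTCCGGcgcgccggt
These stretches held 9 CpG in Sdhb, 20 in Ndufs7, 18 in Ndufs5, 23 in Uqcrfs1 and 4 in Cox7a1, against 27 in Sdhd and 26 in Cox6a1. The letters of NRF1 and ETS stood in both promoters without a site, and those of NRF1 also in Ndufs5. Among these 7, which were chosen after their values were seen, RUNX letters stood only in promoters with a myeloid site. This was not so over the whole set. By the first listed start, TGTGGT stood in 3 of 23 promoters inside a myeloid site (13.0%) and in 6 of 55 others (10.9%).

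Fewer of the genes had a TET2 site in the AML list than in the myeloid list, as was so over all protein-coding genes. A site was assigned to the protein-coding gene with the nearest start or end within 100 kb of its midpoint. In the AML list 12 of the 96 genes had a site (12.5%, exact 95% interval 6.63 to 20.8), against 18.6% of all protein-coding genes. In the myeloid list 37 had one (38.5%, 28.8 to 49), against 40.0% of all protein-coding genes. Both intervals included the value of all genes. In all, 10 genes had sites in both lists, 2 in the AML list alone (Ndufs4 and Ndufaf7), 27 in the myeloid list alone, and 57 in neither. Over all 21887 protein-coding genes these counts were 3630, 445, 5129 and 12683. No test of enrichment was made, and intervals here cover counting error only.

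Nearly all AML sites at these genes were distant, as in the AML list as a whole, while many myeloid sites stood at the ends of the genes. Within 1 kb of a gene end, here called gene-end sites, 1 of the 96 genes had an AML site (1.04%, 0.0264 to 5.67; all genes 2.74%) and 21 a myeloid site (21.9%, 14.1 to 31.5; all genes 18.6%). Farther away, from 1 to 100 kb, 12 genes had an AML site (12.5%; all genes 16.8%) and 20 a myeloid site (20.8%, 13.2 to 30.3; all genes 29.7%). These 4 intervals also included the values of all genes. For farther myeloid sites this reading changed when all annotated genes, not just protein-coding ones, competed for sites: 9 of the 96 genes then had one (9.38%, 4.38 to 17.1), below the 21.2% of all genes. Of the 15 AML sites 1 was a gene-end site (6.67%, 0.169 to 31.9), against 9.99% of all 6086 assigned AML sites. The other 14 were farther sites, and their median distance was 19.1 kb (2.06 to 85.1 kb). Of the 58 myeloid sites 22 were gene-end sites, 37.9% (25.5 to 51.6), against 24.8% of all 17141 assigned myeloid sites. Of these 22, 15 lay under 100 bp from the gene end. The site nearest inside the 1 kb limit was that of Uqcrq at 982 bp, and the nearest outside was that of Ndufv2 at 1.67 kb.

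**Figure D1:**
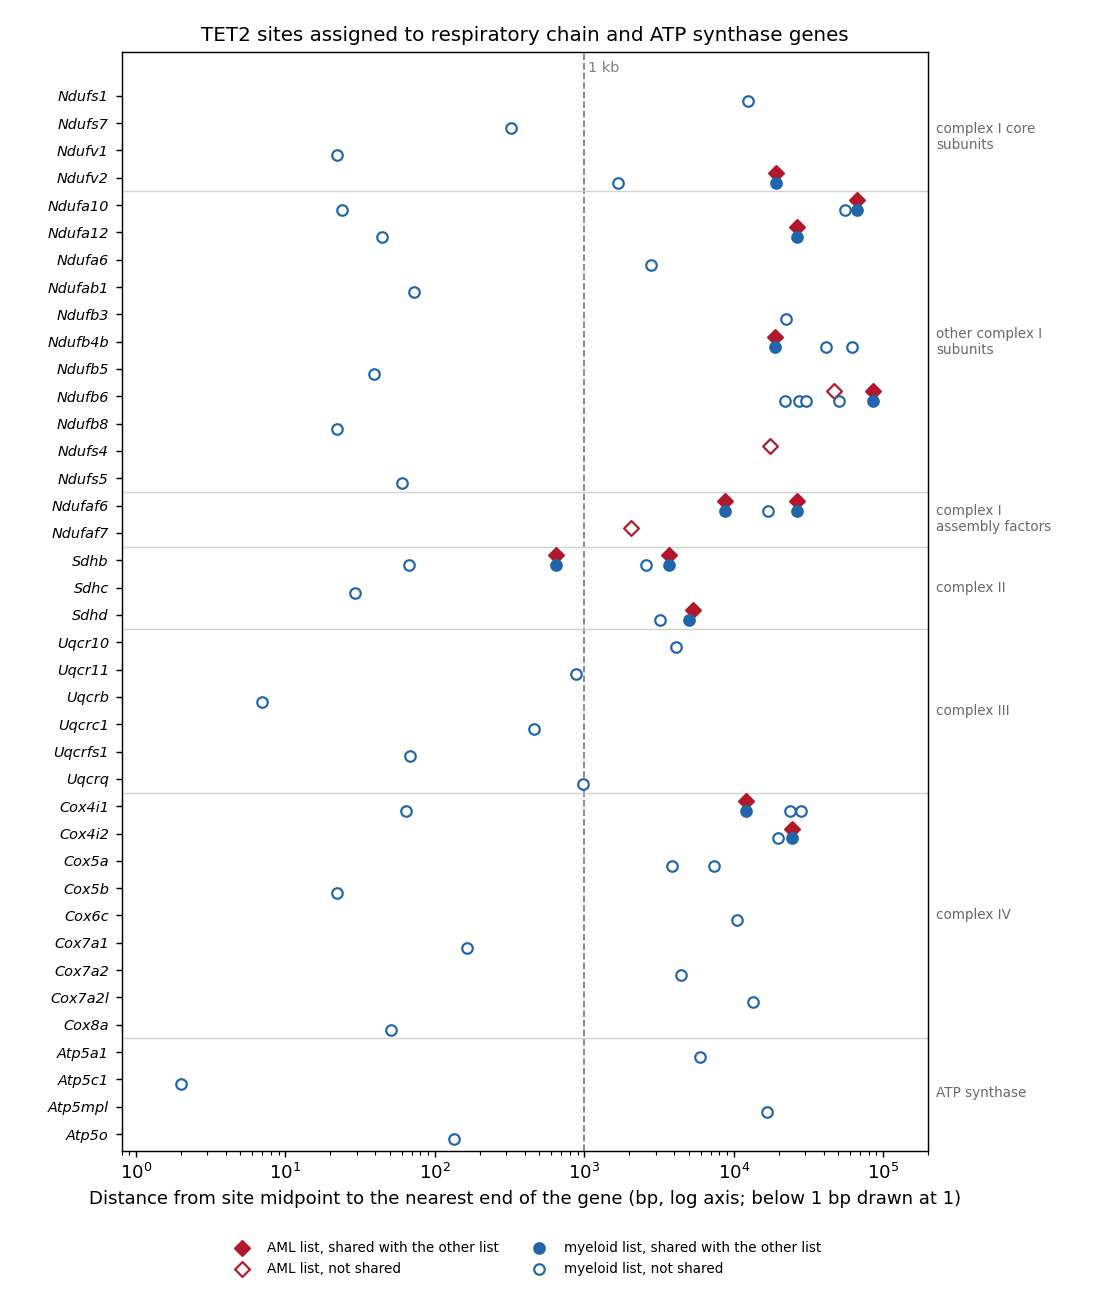
Distance from each site midpoint to the nearest end of its gene (bp, log axis) for the 39 genes with a site; diamonds are AML sites, circles myeloid sites, and filled symbols are sites shared by both lists. The filled symbols lie right of the 1 kb line except at Sdhb. Of the 46 open circles 15 lie under 100 bp, 6 between 100 bp and 1 kb, and 25 beyond 1 kb.

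Most AML sites at these genes were shared, while nearly all gene-end sites were of the myeloid list alone. Sites that overlapped by at least 1 bp were called shared. Of the 15 AML sites 12 were shared (80.0%, 51.9 to 95.7), against 72.6% of all assigned AML sites. Of the 22 myeloid gene-end sites 21 were not shared, and the shared one lay at the 3′ end of Sdhb. Across all genes 3748 of 4252 myeloid gene-end sites were not shared, so the same lean was seen in the whole list.

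The genes are short and stand in gene-dense sequence, which limits the number of sites that can be assigned to them. Their median length was 7.23 kb, against 17.2 kb for all genes. A gene's territory, the sequence that lies nearest to its own ends, had a median of 18.7 kb (quartiles 10.9 and 42.1 kb), against 46.5 kb (21.6 and 110.0 kb). Per territory the 96 genes had 4.36 AML sites per Mb (exact Poisson 95% interval 2.44 to 7.19), against 3.58 over all genes. They had 16.9 myeloid sites per Mb (12.8 to 21.8), against 10.1 over all genes. The AML interval included the value of all genes and the myeloid interval did not, but neighbouring sites are not independent and the difference was not tested. Small territories also hold more gene ends per Mb, and 24.8% of all assigned myeloid sites were within 1 kb of a gene end. Whether this bears on the density was not tested. With sites and territory limited to 20 kb the values were 4.14 and 4.4 AML sites per Mb, and 19.8 and 14.3 myeloid sites per Mb, for the set and for all genes. No interval was computed at this limit.

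Transcription starts could be read for 78 of the genes from the RefSeq promoter table. No start of the 78 lay inside an AML site (0 of 78, interval up to 4.62%), against 1.73% of 17492 protein-coding genes. In the myeloid list 24 starts lay inside a site (30.8%, 20.8 to 42.2), against 19.2% of all genes, just below that interval. For 0 of these 24 starts was the site shared with the AML list (0 to 14.2%), against 9.25% of the 3353 starts of all genes inside a myeloid site, which lies inside that interval. They comprised 11 of 42 complex I genes, 1 of 3 in complex II, 1 of 5 in complex III, 5 of 13 in complex IV and 6 of 15 in ATP synthase. The midpoints of these sites had a median offset of -33 bp, upstream of the start, and a range of -219 bp at Ndufa4 to 319 bp at Ndufa13. Since only sites covering a start were counted here, midpoints near the starts were fixed by that choice.

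**Figure D2:**
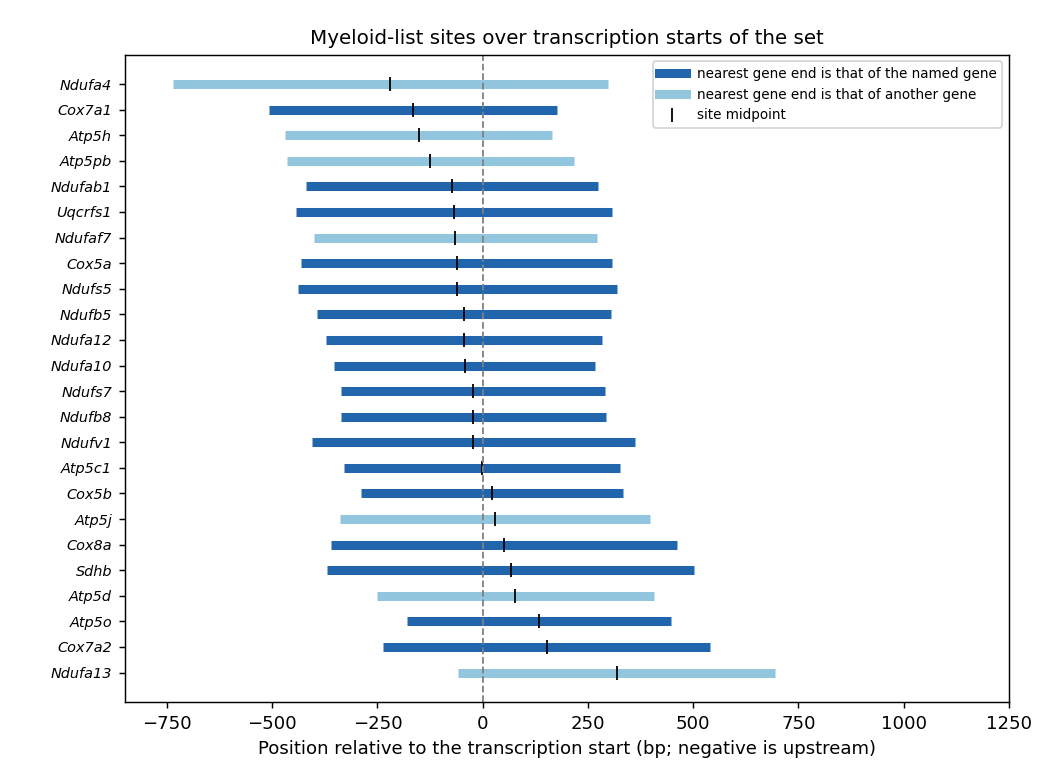
Extent of the myeloid-list site over the transcription start of each of the 24 genes, in bp relative to the start (dashed line, negative is upstream); black ticks are midpoints, from -219 to 319 bp. Light bars mark the 7 sites whose nearest gene end belonged to another gene.

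Several of these sites stood between neighbouring genes and cannot be given to either. For 7 of the 24 starts the nearest gene end was that of another gene. They were Atp5d, Atp5h, Atp5j, Atp5pb, Ndufa13, Ndufa4 and Ndufaf7, so these 7 are missing from the gene-end counts above. Of the 24 sites, 6 also covered the start of a second protein-coding gene on the opposite strand. The start of Atp5j, which encodes a coupling factor subunit of ATP synthase, shared its site with that of Gabpa, the DNA-binding subunit of GABP. Ndufb5 shared its site with the mitochondrial ribosomal gene Mrpl47, Atp5c1 with Kin, Atp5h with Kctd2, Atp5pb with Wdr77 and Ndufa4 with Phf14. Counting every gene with an end within 1 kb of a site gave 31 of the 96 genes for the myeloid list (32.3%, 23.1 to 42.6), against 21.4% of all genes, which lies below that interval. With each site given to 1 gene the interval had included the value of all genes. The AML count was again 1 (1.04%, 0.0264 to 5.67), against 3.0% of all genes.

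Complex II had a myeloid site at 3 of its 4 genes (interval 19.4 to 99.4%), against 40.0% of all genes. An AML site was found at 2 of the 4 (6.76 to 93.2%), against 18.6% of all genes. Both intervals included the value of all genes. Sdhb, which encodes the iron-sulfur subunit (chromosome 4, 140961271 to 140979198), had 2 AML sites and 4 myeloid sites. One myeloid site (140960903 to 140961774) lay over its start and was not shared. Both AML sites lay in the gene, 14.2 and 17.3 kb past the start, and both overlapped myeloid sites; the second was 643 bp from the gene's 3′ end. Another intragenic myeloid site, 15.3 kb past the start, was not shared. From its territory of 25.8 kb Sdhb would take 0.092 AML sites and 0.26 myeloid sites at the average density of all genes. Such values were computed for every gene of the set and are given for Sdhb alone because its counts were high. They are no test of enrichment. Sdhc, a membrane anchor subunit, had 0 AML sites and 1 myeloid site 29 bp from a gene end. Sdhd, the other membrane anchor, had 1 AML site 5.34 kb and 2 myeloid sites 3.19 and 5.00 kb beyond its 3′ end, of which the farther myeloid site was shared. The next gene on that side was Il18, which encodes an inflammatory cytokine, at 9.16 kb from the AML site. Sdha, the flavoprotein that oxidizes succinate, had 0 sites in both lists.

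**Figure D3:**
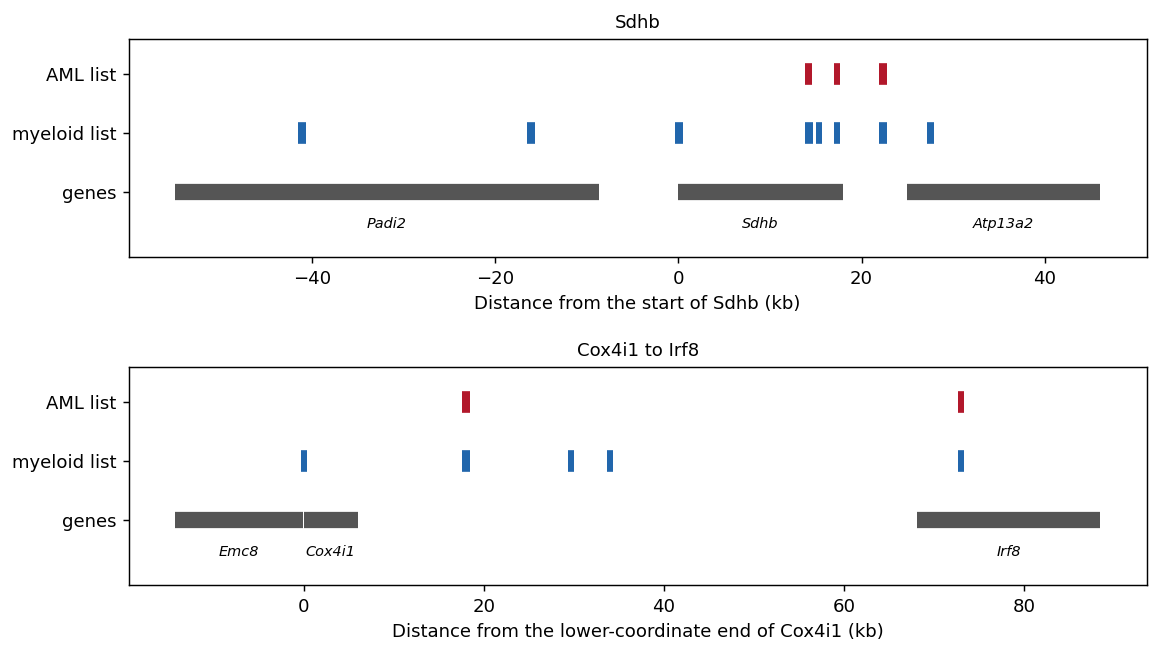
Sites of the AML list (upper row) and the myeloid list (middle row) around Sdhb and between Cox4i1 and Irf8, in kb from the start of Sdhb and from the lower-coordinate end of Cox4i1. The myeloid sites at 0 kb have no AML site above them, whereas the AML sites within Sdhb and beside Cox4i1 each stand above a myeloid site; the other sites drawn were nearer to neighbouring genes.

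In complex I, an AML site was found at 8 of 49 genes (16.3%, 7.32 to 29.7; all genes 18.6%) and a myeloid site at 15 (30.6%, 18.3 to 45.4; all genes 40.0%). Of the 7 core subunits, AML sites were assigned to 1 (14.3%, 0.361 to 57.9) and myeloid sites to 4 (57.1%, 18.4 to 90.1). Both intervals included the value of all genes. Ndufv1, which encodes the subunit that binds NADH, had 1 myeloid site with its midpoint 22 bp upstream of the start (chromosome 19, 4012394 to 4013160). Ndufs7, an iron-sulfur subunit, had 1 with its midpoint at -23 bp. Ndufs1, another iron-sulfur subunit, had 1 at 12.4 kb. Ndufv2 had 1 AML site at 19.1 kb and 2 myeloid sites at 1.67 and 19.2 kb, all inside its neighbour Ankrd12. Ndufs3 and Ndufs8 had no assigned site.

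Of the 34 genes grouped as other subunits, AML sites were assigned to 5 (14.7%, 4.95 to 31.1; all genes 18.6%). Myeloid sites were assigned to 10 (29.4%, 15.1 to 47.5; all genes 40.0%). Myeloid gene-end sites stood at 6 of the 34 (17.6%, 6.76 to 34.5; all genes 18.6%). These 6 were Ndufa10, Ndufa12, Ndufab1, Ndufb5, Ndufb8 and Ndufs5, with sites at 22 to 72 bp from the gene end. Ndufab1 encodes the mitochondrial acyl carrier protein, which also serves lipoic acid synthesis. None of these 6 sites was shared, nor were 3748 of the 4252 myeloid gene-end sites of all genes. The site of Ndufb8 was nearest, at 22 bp. Ndufa10 and Ndufa12 each also had a shared site far beyond the 3′ end, at 66.7 kb and 26.5 kb. By this assignment the most sites of the set were at Ndufb6, with 2 AML sites (46.9 and 85.1 kb upstream) and 5 myeloid sites (21.9 to 85.1 kb upstream). All of these stood between Ndufb6 and Tmem215, whose nearer end was 108 to 171 kb away. With a 20 kb limit, or with all annotated genes competing, Ndufb6 had 0 AML and 0 myeloid sites, whereas Sdhb had 2 and 4 under both. Ndufb4b, a short gene within Dock8, had 1 AML site and 3 myeloid sites, all of them inside Dock8, a regulator of leukocyte migration. Ndufs4 had 1 AML site 17.4 kb upstream that was not shared, and 0 myeloid sites. Ndufa6 and Ndufb3 had 1 myeloid site each, at 2.80 and 22.5 kb. The remaining 23 genes had no assigned site: Ndufa1, Ndufa2, Ndufa3, Ndufa4, Ndufa4l2, Ndufa5, Ndufa7, Ndufa8, Ndufa9, Ndufa11, Ndufa13, Ndufb1, Ndufb2, Ndufb4, Ndufb4c, Ndufb7, Ndufb9, Ndufb10, Ndufb11, Ndufc1, Ndufc2, Ndufs6 and Ndufv3. Of these, Ndufa4 and Ndufa13 had their start in a myeloid site whose nearest gene end was another gene's.

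The assembly factors of complex I had 0 gene-end sites in both lists by nearest gene. For these 8 genes the interval was 0 to 36.9% in each list. It included the share of all genes, 2.74% in the AML list and 18.6% in the myeloid list. Ndufaf6 had 2 AML sites at 8.71 and 26.7 kb and 3 myeloid sites at 8.69, 17.1 and 26.6 kb, of which those near 8.7 and 26.6 kb were shared. Ndufaf7, a methyltransferase needed for complex I assembly, had 1 AML site inside the gene, 2.03 kb past the start. That site was not shared, while a myeloid site of which Cebpz had the nearer end covered the start of Ndufaf7. The other 6, Ndufaf1, Ndufaf2, Ndufaf3, Ndufaf4, Ndufaf5 and Ndufaf8, had no assigned site.

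In complex III all assigned sites belonged to the myeloid list. They stood at 6 of 8 genes (75%, 34.9 to 96.8; all genes 40.0%), against 0 of 8 in the AML list (0 to 36.9; all genes 18.6%). Both intervals included the value of all genes. By transcription starts, 1 of 5 lay inside a myeloid site (20.0%, 0.505 to 71.6; all genes 19.2%). Gene-end sites stood at 5 of the 8 genes (62.5%, 24.5 to 91.5; all genes 18.6%). Uqcrb, a subunit of the ubiquinone-binding region, had its site 7 bp from a gene end, with an end of Gm10767 within 1 kb. Uqcrfs1 had its site 68 bp upstream of the start (chromosome 13, 30545008 to 30545760). The core protein gene Uqcrc1 had a site 460 bp and Uqcr11 a site 881 bp upstream of the start. The site of Uqcrq, at 982 bp, lay inside Gdf9. With a limit of 0.5 kb the gene-end count of complex III was 3. Uqcr10 had 1 site 4.10 kb beyond its 3′ end, and Uqcrc2 and Uqcrh had no assigned site.

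In complex IV, cytochrome c oxidase, AML sites stood at 2 of 18 genes (11.1%, 1.38 to 34.7; all genes 18.6%) and myeloid sites at 9 (50.0%, 26.0 to 74.0; all genes 40.0%). Cox5b, Cox8a, Cox4i1 and Cox7a1 had a myeloid gene-end site at 22, 51, 64 and 165 bp, and none of these was shared. The site of Cox4i1, the common form of subunit 4, also had ends of Gm27021 and Emc8 within 1 kb. Cox5a and Cox7a2 counted as farther genes because their annotated extent reaches past the listed starts, yet a myeloid site covered the start of each, with midpoints at -62 and 152 bp. Cox5a had a second site 3.41 kb past the start. Cox6c and Cox7a2l had 1 myeloid site each, at 10.5 and 13.4 kb. Cox6a1, Cox6a2, Cox6b1, Cox6b2, Cox7b, Cox7b2, Cox7c, Cox8b and Cox8c had no site.

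Beyond Cox4i1 lay a shared site and 2 further myeloid sites on the side of Irf8, a transcription factor of monocyte and dendritic cell development. The AML site (chromosome 8, 120685797 to 120686642) was 12 kb from the end of Cox4i1 and 50.1 kb from the start of Irf8. The myeloid sites stood 12, 23.7 and 28.0 kb from Cox4i1 and 50.1, 38.5 and 34.2 kb from Irf8. The sites of Cox4i2, the lung-type form of the subunit, all lay inside Bcl2l1, which encodes the apoptosis inhibitor BCL-XL. They were 1 AML site at 24.6 kb and myeloid sites at 19.8 and 24.4 kb from Cox4i2. Nearness alone assigned these sites to the respiratory genes, and which gene they act on was not tested.

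In ATP synthase AML sites stood at 0 of 17 genes (0 to 19.5%; all genes 18.6%) and myeloid sites at 4 (23.5%, 6.81 to 49.9; all genes 40.0%). Both intervals included the value of all genes. Atp5c1, the gamma subunit of the rotor, had its myeloid site 2 bp from the start (chromosome 2, 10080185 to 10080840), and Atp5o, the peripheral stalk subunit OSCP, had one 134 bp past the start. Atp5a1, the alpha subunit, had a site 5.96 kb away inside Haus1, and Atp5mpl one at 16.7 kb. The remaining 13 genes had no assigned site: Atp5b, Atp5d, Atp5e, Atp5g1, Atp5g2, Atp5g3, Atp5h, Atp5j, Atp5j2, Atp5k, Atp5l, Atp5md and Atp5pb. By transcription starts the count was higher, with 6 of 15 starts inside a myeloid site, since the sites over Atp5d, Atp5h, Atp5j and Atp5pb went to neighbours. Among the 13 was Atp5b, the catalytic beta subunit.

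**Figure D4:**
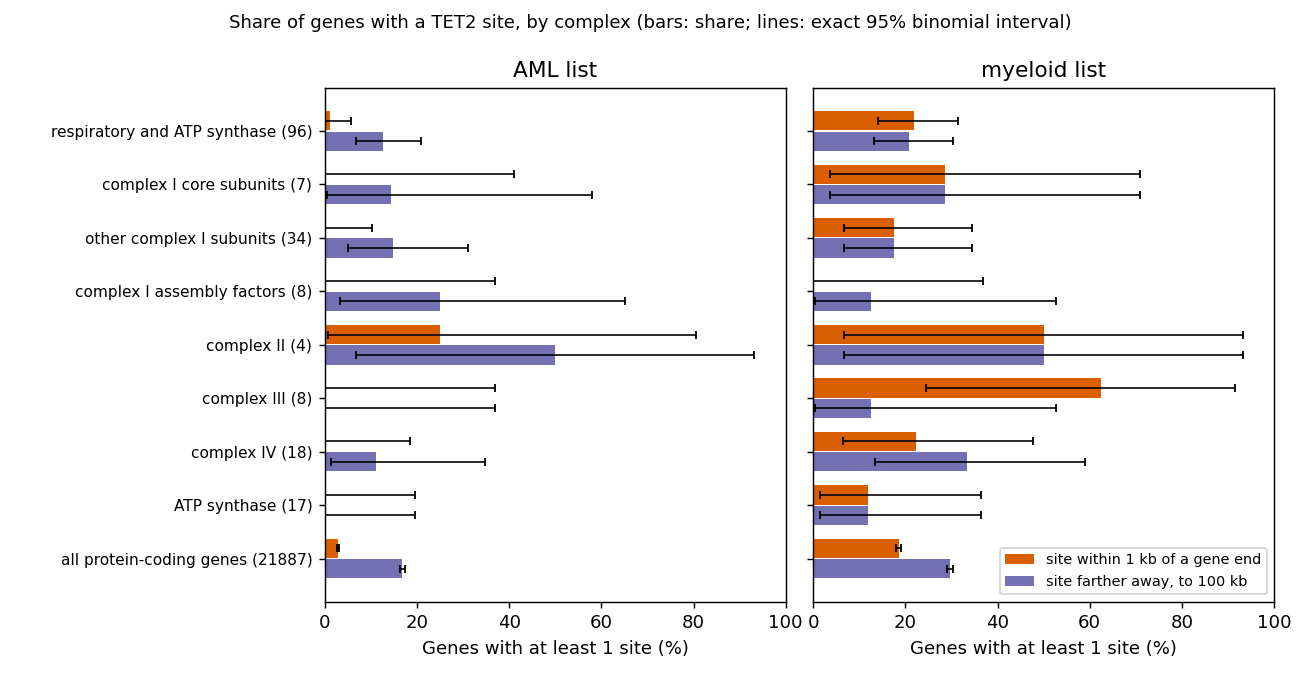
Share of genes with at least 1 site within 1 kb of a gene end (orange) or farther away up to 100 kb (purple), in the AML list (left) and the myeloid list (right), with exact 95% binomial intervals and the number of genes in parentheses. Complex III has 62.5% of its genes with a myeloid gene-end site and 0 with an AML gene-end site, and all protein-coding genes have 18.6% and 2.74%. Farther AML sites stand at 0 genes of complex III and at 16.8% of all genes.

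The set held 8 paralogs found mainly in particular tissues such as muscle, lung or testis, or under low oxygen: Ndufa4l2, Cox4i2, Cox6a2, Cox6b2, Cox7a1, Cox7b2, Cox8b and Cox8c. Of these paralogs 1 had sites in the AML list and 2 in the myeloid list (25%, 3.19 to 65.1), against 35 of the other 88 genes (39.8%, 29.5 to 50.8) in the myeloid list. The intervals overlapped widely. Cox7a1 was the paralog with a myeloid site over its start, and Cox4i2 had the sites within Bcl2l1 described above.

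Promoters of the set were rich in CpG and in NRF1 and YY1 letters. In the window from 250 bases before to 50 after the first listed start the set had a median of 20.0 CpG (quartiles 15 and 25), against 13.0 (3.75 and 24.0) over all 17492 promoters. The NRF1 motif stood in 18 of 78 promoters (23.1%, 14.3 to 34), against 6.60% of all. CCGGAAG also stood in 18 (23.1%), against 11.9% of all, and AAGATGGC, the letters bound by YY1, in 10 (12.8%, 6.32 to 22.3), against 3.22%. All AAGATGGC matches of the set reached into the 50 bases after the start, as none was left in the 250 bases before it. TGTGGT stood in 9 promoters (11.5%), against 15.1%, and TTGCGCAA, a C/EBP motif, in 0 of 78, against 0.212%. Matches were counted on both strands, with overlaps between motifs allowed.

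Within the set, ETS and NRF1 letters were counted less in promoters with a myeloid site over the start than in those without, within overlapping intervals. By the first listed start, 23 promoters were inside a myeloid site and 55 were not. CCGGAAG was found in 3 of the 23 (13.0%, 2.78 to 33.6) and in 15 of the 55 (27.3%, 16.1 to 41.0), and the NRF1 motif gave the same counts. AAGATGGC was found in 3 of the 23 (13.0%) and 7 of the 55 (12.7%), and TGTGGT in 3 (13.0%) and 6 (10.9%). Over all genes the share with CCGGAAG was 29.0% of 3168 promoters inside a myeloid site and 8.11% of 14324 outside. A match is only a run of letters, not a bound site. The median CpG count was 23.0 inside and 19 outside for the set, and 23.0 inside and 10.0 outside for all genes.

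**Figure D5:**
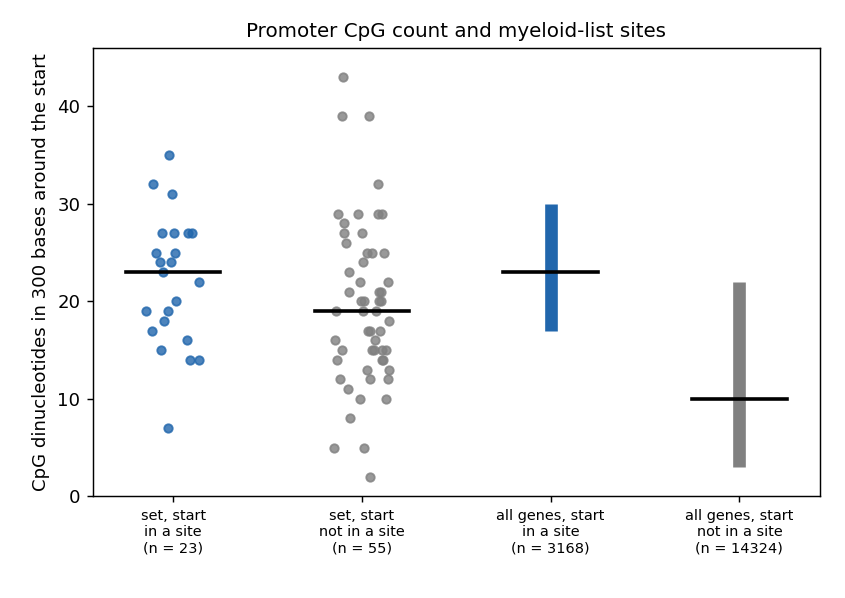
CpG dinucleotides in the 300 bases around the start, for the set (points, 1 per gene) and for all protein-coding genes (bars from the lower to the upper quartile), by whether the start lies in a myeloid site; black lines are medians. The medians are 23.0 and 19 for the set and 23.0 and 10.0 for all genes.

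Among CpG-rich promoters the myeloid share of the set came close to that of all genes, and among the other promoters it was higher. In both classes the interval included the value of all genes. A window was called CpG-rich at over 55% GC and an observed over expected CpG ratio over 0.65, a split added after the data were seen. Of the 45 CpG-rich promoters of the set 16 had their start in a myeloid site (35.6%, 21.9 to 51.2), against 32.6% of 6660 CpG-rich promoters. Of the other 33 promoters 7 did (21.2%, 8.98 to 38.9), against 9.19% of 10832. In the AML list 0 of 45 and 0 of 33 did, against 2.06% and 1.26% of all genes.

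Other genes of mitochondrial energy metabolism were counted from lists by name, which were also chosen with earlier results of these data known. Over all protein-coding genes the shares were 18.6% with an AML site, 40.0% with a myeloid site and 18.6% with a myeloid gene-end site. Of 51 genes of assembly and electron carriers, AML sites stood at 5 (9.80%, 3.26 to 21.4) and myeloid sites at 26 (51.0%, 36.6 to 65.2). Of the 51, 18 had a myeloid gene-end site (35.3%, 22.4 to 49.9), and that interval lay above the share of all genes. Uqcc1, an assembly factor of complex III, had 2 AML sites, 1 at a gene end, and 3 myeloid sites. Pet117, an assembly factor of complex IV, had 1 AML site at a gene end and 0 assigned myeloid sites. That AML site was shared, so a myeloid site that went to another gene overlapped it. Lrpprc, which stabilizes mitochondrial messenger RNA, had 1 and 3, Nubpl 2 and 2, and Coa7 0 and 3. Of 19 genes of the tricarboxylic acid cycle and pyruvate entry AML sites stood at 2 (10.5%, 1.30 to 33.1) and myeloid sites at 11 (57.9%, 33.5 to 79.7), with 4 at a gene end (21.1%, 6.05 to 45.6), and these 3 intervals included the shares of all genes. Pdhx, a pyruvate dehydrogenase component, had 3 AML sites and 4 myeloid sites, the succinyltransferase gene Dlst 1 and 1, the citrate synthase gene Cs 0 and 2, and Idh2 0 and 2.

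Of 20 nuclear regulators of mitochondria, AML sites stood at 4 (20.0%, 5.73 to 43.7) and myeloid sites at 13 (65.0%, 40.8 to 84.6; all genes 40.0%), with 8 at a gene end (40.0%, 19.1 to 63.9; all genes 18.6%). The shares of all genes lay just below both myeloid intervals. Ppard had 1 AML site and 7 myeloid sites, Yy1 had 1 and 4, and Gabpb1, the partner of GABPA, had 0 and 4. Polg, the mitochondrial DNA polymerase, had 2 AML sites, 1 at a gene end, and 3 myeloid sites. Of 78 mitochondrial ribosomal protein genes, which like the set are short and widely expressed, AML sites stood at 9 (11.5%, 5.41 to 20.8) and myeloid sites at 37 (47.4%, 36.0 to 59.1), with 22 at a gene end (28.2%, 18.6 to 39.5), against 18.6%, 40.0% and 18.6% of all genes. Mrpl1 had 3 AML sites, 1 at a gene end, and 3 myeloid sites, Mrps23 had 0 and 5, Mrpl33 had 1 and 3, and Mrps33 had 0 and 4. The intervals of the respiratory set overlapped those of the ribosomal genes in both lists.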

How the data were processed

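TET2 ChIP-seq was made from 12 libraries of 2 cultures, crosslinked with 2 mM disuccinimidyl glutarate and 1% formaldehyde and sheared to 200 to 500 bp, per the labels' protocols. Trimmomatic, Bowtie2 and MACS2 with mm10 are named in the submitters' processing notes; for versions, thresholds, pooling and the use of control libraries, nothing is stated in the labels. Per culture, the authors deposited 1 list of site positions (chromosome, start and end in bp, per the file headers), with no score or other measure. Whether starts count from 0 or 1 is not stated, so positions are uncertain by 1 bp.

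Overlapping sites of a list were merged and 1 AML site outside the assembled chromosomes was dropped. Genes and promoters came from RefSeq tables of GRCm38.p6, whose chromosome coordinates are those of mm10. Of the 96 genes, 78 matched the promoter table. Among the 18 others were Ndufs1, Ndufa2, Ndufa4l2, Ndufaf6, Ndufb4c, Ndufb9, Sdhc, Uqcrb, Uqcrc2, Uqcrq, Cox4i1, Cox4i2, Cox6a2, Cox6c, Cox8c, Atp5a1 and Atp5mpl. Shares have exact Clopper-Pearson intervals and densities exact Poisson intervals at 95%, computed in Python 3.11.15 with scipy 1.17.1; the assignment was tested on simulated sites. With 1 list per culture no test between cultures or genotypes was made. Some items are not reported here. The members and gene lists were chosen with earlier results of these data known. Named genes were all with an AML site, all with 2 or more myeloid sites, complex II, those with only farther myeloid sites, the nearest gene-end site per group, and in other lists up to 4 genes with most sites and all with an AML gene-end site. The remaining members were listed by whether they had a site, and distances given for those with a single gene-end site were added after their values were seen.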

Additional observations from a re-analysis of the deposited data

How the results depend on the processing

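Of 353 recomputed counts and shares, 322 stayed within 1.5 times of the reported value or within its interval, and 31 did not. Of 196 recomputed site counts of single genes 33 moved by more, 12 at the 20 kb limit, 20 with all annotated genes competing and 1 without merging, where Cox4i2 had 4 myeloid sites. Among these were Ndufb6, Cox4i2, Ndufb3, Ndufs7, Cox7a2, Cox7a2l, Uqcr10, Atp5a1 and Atp5mpl, which had 0 sites in at least 1 list under at least 1 setting. Cox4i1, Ndufa10 and Ndufa12 each had 0 AML sites and 1 myeloid site when all annotated genes competed. At a gene-end limit of 0.5 kb the AML count was 0 genes and 0 sites (0 in complex II and 0 among nuclear regulators), and the myeloid count was 3 in complex III and 5 among nuclear regulators. With gene starts only, 0 of 78 genes had an AML site within 1 kb of a start, and 27 a myeloid site (34.6%, 24.2 to 46.2), above the 22.2% of all genes. With assignment limited to 20 kb there were 9 AML sites, 7 of them shared in each list, at 1 gene of complex IV, 2 other complex I subunits and 1 nuclear regulator. When all annotated genes competed for sites, 7 genes had an AML site (12.7% of all genes) and 7 a farther one (10.7%), with 8 sites, 6 shared in each list. By group these were 0 in complex IV, 2 other complex I subunits, 2 nuclear regulators and 4 mitochondrial ribosomal genes. The myeloid list then gave 34 sites, 9 genes with farther sites (9.38%, below the 21.2% of all genes), 2 genes in ATP synthase and 1 core subunit with a gene-end site. With every gene within 1 kb counted, myeloid gene-end counts were 5 in ATP synthase, 10 other complex I subunits, 1 assembly factor and 4 core subunits. In the 250 bases before the start alone, 0 promoters held AAGATGGC. More competing genes, or a shorter reach, leave fewer sites to the set by construction. Adding 4 Sdhaf genes gave 40 genes with a myeloid site of 100. No paired analysis was possible because the lists hold no value per library, and for the same reason no replicate could be left out. Depth per site is unknown, so an absent site is not shown to be unbound.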
